A study of Rattus norvegicus with 6 samples.

Results

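Caveolae are small flask-shaped pits of the cell membrane, rich in cholesterol and sphingomyelin. Caveolin proteins insert into the inner leaflet of the pit, cavins form a peripheral coat on it, the ATPase EHD2 holds the neck, and the F-BAR protein pacsin 2 helps to bend the membrane. Caveolae buffer membrane tension, take up cargo and gather signaling receptors. In the nervous system they are best known from vascular cells, and caveolin 1 is also made by glia. The genes described here were the caveolins Cav1, Cav2 and Cav3, the cavins Cavin1, Cavin2, Cavin3 and Cavin4, and Ehd2 and Pacsin2. All 9 had a probe set with values, among 13949 genes with one. The genes were picked by name, and where a gene had several probe sets, the one in use was chosen by its mean level over all 6 arrays, without regard to group. The family was proposed with results of these same arrays known, so its calls are given as a description and the number of members called supports nothing about the family.

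RNA came from primary rat OPCs, the oligodendrocyte progenitor cells that divide and give rise to myelinating cells, prepared from pups of postnatal day 1 to 2. All cultures had spent 2 days in a DMEM-based proliferation medium with N2, B27, penicillin and streptomycin, NT3 and PDGF. The 3 control samples were then left unstimulated and the 3 fibrinogen samples were exposed to the blood clotting protein fibrinogen for 12 h; the sources used here give no strain, sex or dose. The series title links fibrinogen to BMP signaling in these cells, and the comparison asks which genes differ between exposed and unexposed OPCs. The values are log2 levels of Affymetrix probe sets, and since a probe set's level also reflects its probes, levels of different genes were not compared.

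The median level over all genes was 6.85 to 6.89 on the 6 arrays. The fibrinogen 2 array stood apart from its group most, where genes deviated from the mean of their group with an SD of 0.146, against 0.0862 to 0.114 elsewhere. As a guide to background, the 95th percentile of 956 olfactory and vomeronasal receptor genes was 5.51, and 71.3% of all genes lay above it. Markers of OPCs were well above it (Pdgfra at 11.50 and Gpr17 at 12.15 in controls). Mean levels of the OPC list were 10.16 to 10.18 in controls and 9.75 to 9.92 with fibrinogen. Of 7 measured markers 4 were called lower, beside 1.29% of all genes. Sox10, Ptprz1 and Bcan, with changes of -0.05 ± 0.08, -0.03 ± 0.07 and -0.22 ± 0.07 (SE), did not pass. The mean of the astrocyte list went from 8.28 to 8.33 in controls to 8.64 to 8.74 with fibrinogen. Of 7 markers 2 were called higher (Gfap and Slc1a2), beside 1.81% of all genes. For 5 of them all fibrinogen arrays were above all controls, beside 10.7% of all genes. The groups of Aqp4 and Gja1 overlapped, with changes of 0.01 ± 0.07 and -0.04 ± 0.08 (SE). Of 7 oligodendrocyte markers 1 was called lower (Cnp, -0.48 ± 0.08, SE), beside 1.29% of all genes. Of 8 neuron markers and 8 microglia and macrophage markers none was called, where 3.1% of all genes were. The mean of the neuron list was 7.57 on fibrinogen 2 and 7.33 to 7.40 on the other arrays. In bulk RNA, fewer cells of a type and less RNA per cell cannot be told apart.

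Cav1, the gene for the caveolin that builds caveolae outside striated muscle, rose with fibrinogen by 1.42 on the log2 scale, a 2.68-fold increase, and its partner Cav2 rose by 0.72. In controls the log2 levels of Cav1 were 8.85, 8.92 and 8.98, and with fibrinogen they were 10.35, 10.26 and 10.40. The groups were far apart, with a gap of 1.28 between the highest control and the lowest fibrinogen array and an SD of 0.07 within each. The log2 change was 1.42 ± 0.07 (SE), with a 95% interval of 1.25 to 1.59, which put Cav1 at rank 2 of 13949 genes by signed change (adjusted p = 0.000134, limma). It passed in each of the 6 fits that left out 1 array, where the change was 1.39 to 1.46.

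Cav2, which joins Cav1 in hetero-oligomers and needs it to leave the Golgi, had levels of 5.68, 6.14 and 5.91 in controls and 6.76, 6.79 and 6.35 with fibrinogen. All fibrinogen arrays were above all controls, but the gap of 0.21 was smaller than the SD within either group (0.23 and 0.25). The log2 change was 0.72 ± 0.15 (SE), a 1.65-fold rise at rank 56 (adjusted p = 0.0374, limma). This call rested on most of the arrays. It was lost without control 1 or control 3 (adjusted p = 0.131 each), fibrinogen 1 (0.115) or fibrinogen 2 (0.0954), and held without control 2 (0.0469) or fibrinogen 3 (0.0217, limma). The platform has 2 probe sets for Cav2, and they carried the same value on every array, so they were counted once and are not separate evidence.

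Cav3, the caveolin of heart and skeletal muscle, did not pass the test. Its levels were 5.55, 5.55 and 5.77 in controls and 5.63, 5.48 and 5.46 with fibrinogen, so the groups overlapped at a level close to the receptor percentile. The change was -0.10 ± 0.09 (SE), with a 95% interval of -0.30 to 0.10 (adjusted p = 0.669, limma). Markers of striated muscle ranged from 4.5 (Ttn) to 6.75 (Ckm) in controls. Of 8 markers, 3 lay above the receptor percentile and none was called, where 3.1% of all genes were called.

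**Figure D1:**
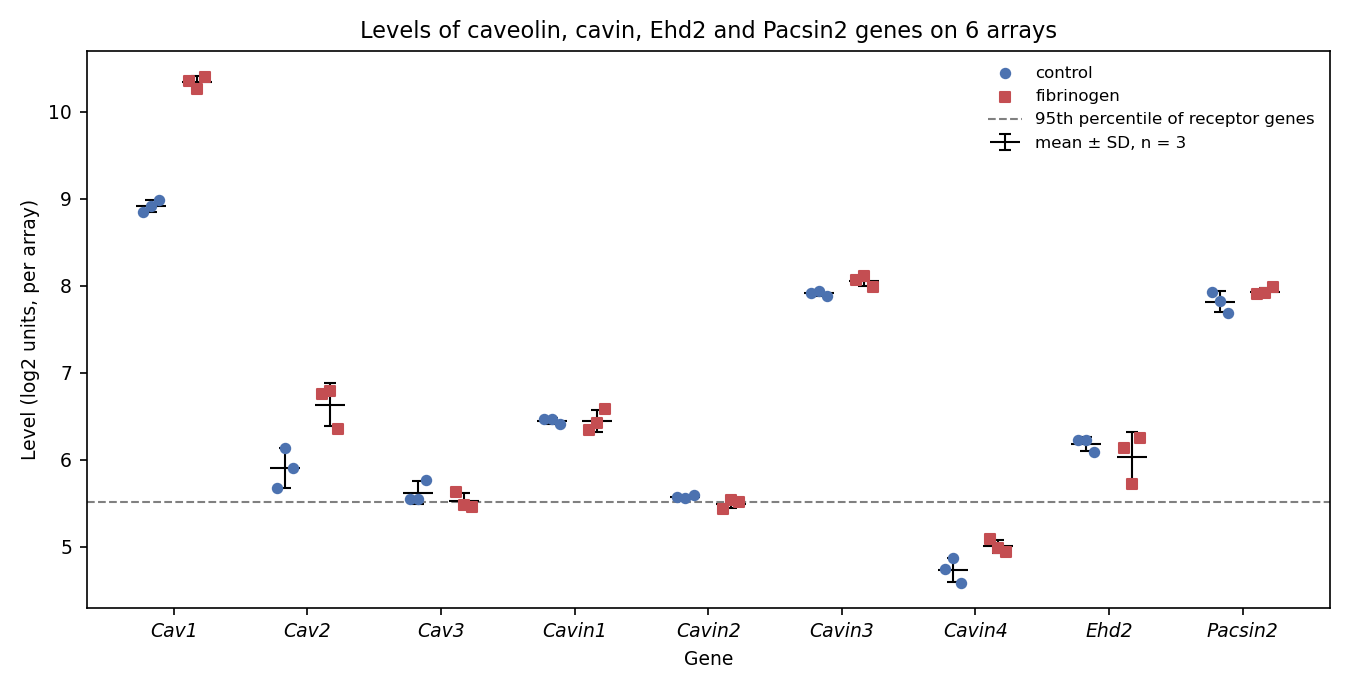
Log2 level (vertical axis) of each of the 9 genes (horizontal axis) on the 3 control arrays (circles) and the 3 fibrinogen arrays (squares), with the mean ± SD of each group (bars) and the 95th percentile of receptor genes (dashed line). The groups of Cav1 lie 1.28 apart, those of Cav2 0.21, which is less than their SD, and those of Cavin2, Cavin3 and Cavin4 at most 0.07, while the other genes' groups overlap. Levels of different genes are not comparable as amounts.

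The cavins, which coat the caveolae that caveolins start, did not pass the test. Cavin1, the cavin without which caveolae are not formed, had levels of 6.47, 6.47 and 6.41 in controls and 6.34, 6.42 and 6.58 with fibrinogen. The groups had the same mean of 6.45, and the fibrinogen arrays lay on both sides of the controls. The log2 change was -0.0033 ± 0.08 (SE), and its 95% interval of -0.19 to 0.18 does not reach the change of Cav1 or Cav2 (adjusted p = 0.99, limma). The sign of so small a difference varied between fits.

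Cavin2, a phosphatidylserine-binding cavin that shapes the membrane, had levels of 5.57, 5.56 and 5.59 in controls and 5.44, 5.54 and 5.51 with fibrinogen. The fibrinogen arrays were all below the controls, by a gap of only 0.02, at levels within 0.1 of the receptor percentile. The change was -0.08 ± 0.07 (SE) with a 95% interval of -0.23 to 0.07 (adjusted p = 0.662, limma).

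Cavin3, which binds protein kinase C delta and helps caveolae to move, had levels of 7.91, 7.94 and 7.88 in controls and 8.07, 8.11 and 7.99 with fibrinogen. The fibrinogen arrays were all above the controls, with a gap of 0.05. The change of 0.15 ± 0.07 (SE) did not pass (adjusted p = 0.353, limma), and its 95% interval was -0.01 to 0.30.

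Cavin4, the muscle cavin, had levels of 4.74, 4.87 and 4.59 in controls and 5.09, 4.99 and 4.94 with fibrinogen. It was the only one of the 9 genes with a mean level below the receptor percentile, where array processing can compress differences. The fibrinogen arrays were above the controls by a gap of 0.07, and the change of 0.27 ± 0.09 (SE), with a 95% interval of 0.07 to 0.48 before any adjustment, did not pass (adjusted p = 0.167, limma).

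The 2 membrane-shaping partners did not pass either. Ehd2 had levels of 6.23, 6.23 and 6.09 in controls and 6.14, 5.72 and 6.25 with fibrinogen. Its low mean with fibrinogen came from the fibrinogen 2 array, and the other arrays of that group lay within or just above the control range. The change was -0.15 ± 0.13 (SE) with a 95% interval of -0.44 to 0.15 (adjusted p = 0.671), and 0.01 without fibrinogen 2 (adjusted p = 0.964, limma). Pacsin2 had levels of 7.93, 7.82 and 7.69 in controls and 7.90, 7.91 and 7.98 with fibrinogen, which overlap. The change was 0.12 ± 0.08 (SE) with a 95% interval of -0.07 to 0.30 (adjusted p = 0.559, limma).

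**Figure D2:**
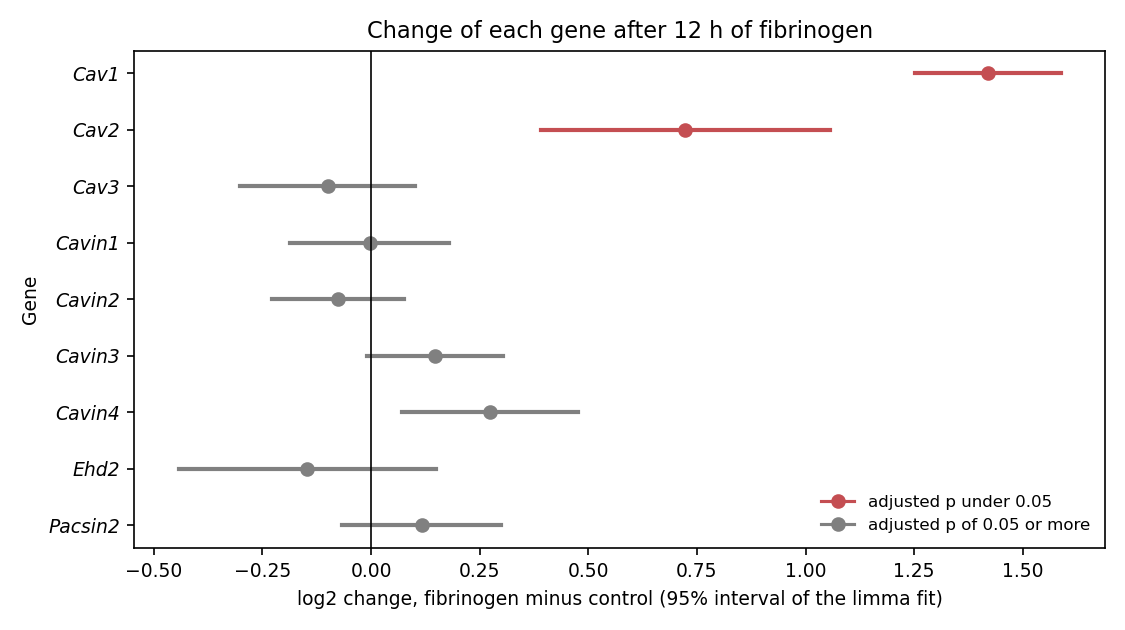
Log2 change, fibrinogen minus control (horizontal axis), of each of the 9 genes (vertical axis), with its 95% interval from the limma fit of 3 against 3 arrays. The intervals of Cav1 (1.25 to 1.59) and Cav2 (0.39 to 1.06) lie above 0, as does that of Cavin4 (0.07 to 0.48), which overlaps that of Cav2 and whose adjusted p did not pass. The intervals of the other 6 genes include 0.

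Of the 9 genes, 2 rose, 0 fell and 7 did not pass, where 3.1% of all genes passed, 1.81% higher and 1.29% lower. In fits without control 1, control 3, fibrinogen 1 or fibrinogen 2, Cav1 was the 1 member that passed, and the change of Cav2 stayed above 0. The groups did not overlap for 4 genes above and 1 below, where the share of all genes was 10.7% above, 10.6% below and 21.3% in all. The median log2 change of the 9 genes was 0.12, beside -0.0033 over all genes. The change of Cav1 was larger than that of every other member, by 0.70 over Cav2, 1.15 over Cavin4, 1.42 over Cavin1 and 1.57 over Ehd2. These differences are a description, since Cav1 is the member with the largest change.

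The sequence just before the start of Cav1 and Cav2, the genes that rose, and of Cavin1, whose mean did not move, is given next as 250 bases of the RefSeq promoter table (build GRCr8). Cav1 and Cav2 lie on chromosome 4 in the same orientation, and no other gene of the RefSeq table lies between them. Capitals mark matches, on either strand, to the motifs searched: GGAATG (bound by TEAD factors), CAGAC (SMAD), GGCGCC (SMAD proteins of the BMP branch), GGGCGG (GC box) and CACGTG (E box).
Cav1, chr4:46606288-46606537, plus strand: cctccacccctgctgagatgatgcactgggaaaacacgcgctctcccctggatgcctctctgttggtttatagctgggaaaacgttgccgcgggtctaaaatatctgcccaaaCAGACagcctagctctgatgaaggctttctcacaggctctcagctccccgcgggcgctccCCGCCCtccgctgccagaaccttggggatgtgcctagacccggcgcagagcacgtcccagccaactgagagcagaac
Cav2, chr4:46582431-46582680, plus strand: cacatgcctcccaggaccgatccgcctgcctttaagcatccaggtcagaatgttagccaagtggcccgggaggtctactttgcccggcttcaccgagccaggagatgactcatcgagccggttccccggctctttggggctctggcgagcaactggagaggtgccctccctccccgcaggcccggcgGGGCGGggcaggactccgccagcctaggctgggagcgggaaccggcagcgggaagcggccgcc
Cavin1, chr10:86396384-86396633, minus strand: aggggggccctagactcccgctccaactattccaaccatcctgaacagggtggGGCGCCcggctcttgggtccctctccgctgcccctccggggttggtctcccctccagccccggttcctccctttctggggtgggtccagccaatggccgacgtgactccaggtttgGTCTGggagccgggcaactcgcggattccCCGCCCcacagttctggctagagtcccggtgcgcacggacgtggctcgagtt
The Cav1 window holds 1 CAGAC and 1 GC box, that of Cav2 1 GC box, and that of Cavin1 1 CAGAC, 1 GGCGCC and 1 GC box. No TEAD motif or E box was found in these 3 windows. The table gives a further start for Cav1 inside the span of its longer transcript, whose window held none of the motifs. Over the 8 members in the table (Cavin3 is the other), CAGAC was found for 5, the GC box for 4, GGAATG and GGCGCC for 2 each and CACGTG for 0. Of 33469 windows of this length, 42.9% held CAGAC, 30.5% the GC box, 12.1% GGAATG, 8.69% GGCGCC and 5.59% CACGTG. These shares are per window, while the members were counted per gene, each over all of its windows. A match describes these letters only.

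The genes that flank Cav2 and Cav1 were examined because the pair is adjacent. The nearest measured gene before Cav2 is Tes, which encodes testin, a LIM domain protein of focal adhesions and actin filaments. Its levels were 7.29, 7.21 and 7.23 in controls and 7.93, 7.72 and 7.72 with fibrinogen, with a gap of 0.43 between the groups. Tes rose by 0.55 ± 0.08 (SE; adjusted p = 0.00988, limma), a call that was lost without control 2 (0.0574) or control 3 (0.0561). The nearest measured gene after Cav1 is Met, the receptor for hepatocyte growth factor. Met had levels of 5.42, 5.44 and 5.36 in controls and 5.89, 5.99 and 5.61 with fibrinogen, all above the controls. Its change of 0.42 ± 0.10 (SE) did not pass (adjusted p = 0.0665, limma), but it did when genes at or under the receptor percentile were left out (0.0424) and without fibrinogen 3 (0.0224).

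The next genes outward were not called. Tfec and Mdfic, before Tes, had changes of 0.22 ± 0.08 and -0.19 ± 0.11 (SE), with Tfec at 3.39 in controls and so below the receptor percentile. Capza2 and ST7, after Met, had changes of -0.01 ± 0.09 and 0.08 ± 0.09 (SE). The measured genes with the larger differences in this stretch were the 4 contiguous ones from Tes to Met, of which Cav1 differed most.

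**Figure D3:**
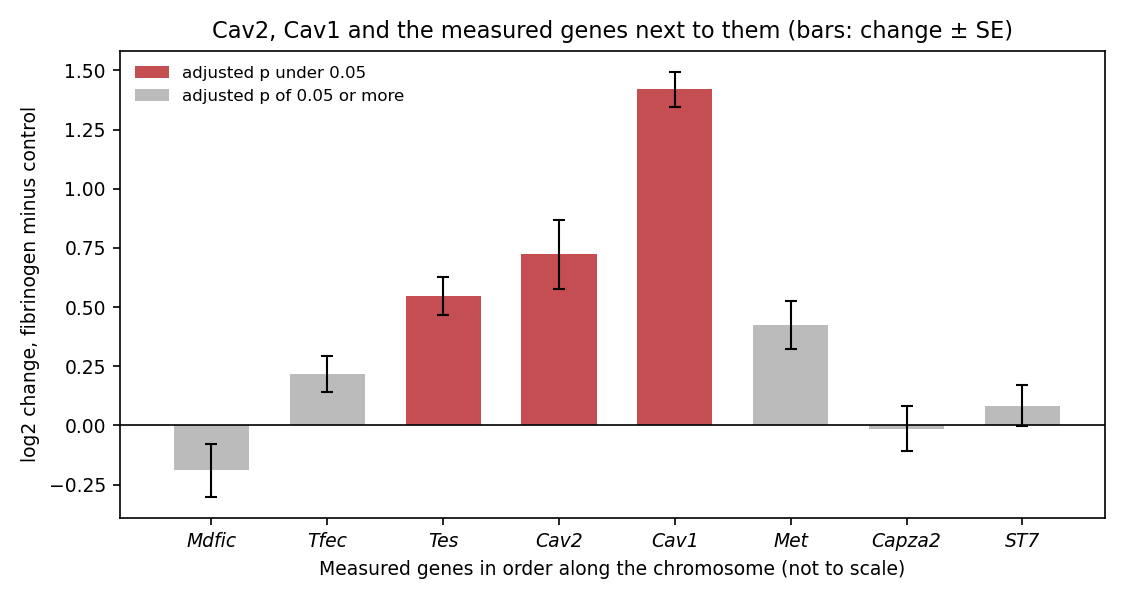
Log2 change, fibrinogen minus control (vertical axis), of Cav2, Cav1 and the 3 nearest measured genes on each side, in chromosome order and not to scale (horizontal axis), as bars with SE. Tes, Cav2 and Cav1 passed the test, Met (0.42) did not, and Capza2 and ST7 lay near 0.

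The genes whose levels over the 6 arrays were most like those of Cav1, each gene centred on its own mean, were Id1 (root mean square difference 0.0916 log2 units), Bgn (0.0959), Cd44 (0.19), Gfap (0.199) and Bhlhe41 (0.202). Id1 encodes an inhibitor of differentiation factors induced by BMP, Bgn the matrix proteoglycan biglycan, Cd44 a hyaluronan receptor, Gfap the astrocyte intermediate filament and Bhlhe41 a transcriptional repressor. They are all among the 7 largest rises, as a measure that keeps the size of a change must favour. The same difference from Cav1 was 0.408 for Cav2, 0.586 for Cavin4 and 0.716 for Cavin1, so Cav2 was the nearest member.

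Cav1 is abundant in vascular cells, so their markers were read on the same arrays. Of 5 measured endothelial markers none was called. By the mean over all 6 arrays 2 lay above the receptor percentile of 5.51, Cdh5 only just (5.52) and Tie1 at 5.68. The mean level of that list was 5.04 to 5.10 in controls and 5.08 to 5.12 with fibrinogen. Of 6 pericyte, smooth muscle and fibroblast markers none was called either, where 3.1% of all genes were. By the mean over all 6 arrays 4 of them lay above the receptor percentile, so this list was not at background as a whole. For 1 of them, Tagln, all fibrinogen arrays were above all controls, with a gap of 0.09, which held for 10.7% of all genes. Its change of 0.26 ± 0.08 (SE) did not pass (adjusted p = 0.167, limma). The mean level of this list was 5.88 to 5.90 in controls and 5.83 to 5.97 with fibrinogen. The ranges of both vascular lists overlapped between the groups. The mean of the astrocyte list rose with fibrinogen as Cav1 did, though Aqp4 and Gja1 did not move, as given above. The part of that list in the rise of Cav1 was not tested.

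Among the EHD and pacsin paralogs, which work at other endocytic membranes, 0 of 4 measured genes rose and 1 fell, beside 1.81% and 1.29% of all genes, with a median change of -0.18. The one that fell was Ehd3, an ATPase of recycling endosomes, with levels of 9.30, 9.53 and 9.32 in controls and 8.47, 8.73 and 8.51 with fibrinogen. It fell by 0.81 on the log2 scale (SE 0.10; adjusted p = 0.00386, limma) and passed without each array in turn. Flotillins and stomatin relatives, scaffolds of membrane rafts that form without caveolin, had 0 of 5 called, beside 3.1% of all genes. Their median was 0.03, with Flot1 at 0.20 ± 0.09 and Flot2 at -0.12 ± 0.13 (SE).

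Of 15 genes of the clathrin coat, the other main route of endocytosis, none was called, beside 3.1% of all genes. The median change was -0.02. The heavy chain gene Cltc had a change of -0.03 ± 0.07 (SE). The furthest from 0 were the adaptor genes Epn2 (-0.38 ± 0.09, adjusted p = 0.0539) and Eps15 (0.32 ± 0.07, adjusted p = 0.0591, limma). Their groups did not overlap, which held for 21.3% of all genes. Of 12 genes for the neck, scission and actin links of caveolae, 0 rose and 1 fell (1.81% and 1.29% of all genes), with a median of 0.02. The dynamin gene Dnm2 and the filamin gene Flna had changes of 0.14 ± 0.08 and -0.02 ± 0.07 (SE). The one that fell was Fyn, a Src family kinase with a role in myelination, by 0.42 on the log2 scale (SE 0.07; adjusted p = 0.0161, limma). Its call was lost without control 1, 2 or 3 (0.0544, 0.09 and 0.081) or fibrinogen 1 (0.0562).

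Of 20 measured proteins that have been reported to bind caveolin or to sit in caveolae, 2 rose and 0 fell, beside 1.81% higher and 1.29% lower of all genes, with a median of 0.01. Cd44 rose by 1.12 ± 0.08 (SE; adjusted p = 0.000449), from 6.41, 6.20 and 6.28 to 7.35, 7.48 and 7.41. The BMP receptor gene Bmpr1a rose by 0.34 ± 0.07 (SE; adjusted p = 0.0441), and Bmpr2, the type II receptor, had a change of 0.40 ± 0.10 that did not pass (0.0754, limma). The call for Bmpr1a was lost with median-centred arrays (0.0543) and without control 1, 2 or 3 (0.166, 0.188 and 0.104), fibrinogen 1 (0.121) or fibrinogen 3 (0.118). Insr, Itgb1 and Nos3, classic residents or partners, had changes of -0.07 ± 0.09, -0.0033 ± 0.12 and -0.03 ± 0.11 (SE).

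Of 14 measured regulators reported for caveolin or cavin transcription, 2 rose and 0 fell, beside 1.81% higher and 1.29% lower of all genes, with a median of 0.12. The hypoxia factor gene Hif1a rose by 0.31 ± 0.07 (SE; adjusted p = 0.0489) and the Kruppel-like factor gene Klf4 by 0.41 ± 0.09 (0.0496, limma), both barely past the threshold and both lost with median-centred arrays (0.058 and 0.0656). Hif1a also failed without control 1, 2 or 3 (0.184, 0.164 and 0.155), fibrinogen 1 (0.112) or fibrinogen 3 (0.141). Klf4 failed without any 1 array (0.0965 to 0.151). It also failed as the mean of all its probe sets, with a change of 0.20 ± 0.14 (SE; adjusted p = 0.564, limma). The coactivators Yap1 and Wwtr1 had changes of 0.13 ± 0.08 and 0.01 ± 0.12, and Srf one of 0.15 ± 0.08 (SE).

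Of 17 measured target genes of YAP and SRF, 3 rose and 0 fell, beside 1.81% higher and 1.29% lower of all genes, with a median of 0.14. They encode actin-binding proteins: Tagln2 rose by 0.67 ± 0.15, Tpm2 by 0.45 ± 0.09 and Actn1 by 0.36 ± 0.07 (SE; adjusted p = 0.0487, 0.0326 and 0.0295, limma). Each call depended on the arrays used. Tagln2 and Actn1 passed without fibrinogen 2 (0.00842 and 0.0437) and Tpm2 without fibrinogen 3 (0.0395), while without each other array the adjusted p was 0.0863 to 0.173 for Tagln2, 0.0703 to 0.137 for Actn1 and 0.0529 to 0.141 for Tpm2. The YAP targets Ccn1 and Ccn2 had changes of 0.33 ± 0.10 and 0.17 ± 0.11 (SE). Amotl2 and Lats2 went the other way, by -0.33 ± 0.12 and -0.17 ± 0.09 (SE). None of these passed, and the YAP targets were mixed in sign.

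Of 10 measured genes for sphingomyelin and cholesterol handling, the lipids that caveolae need, 0 rose and 1 fell (1.81% and 1.29% of all genes), with a median of -0.05. Scarb1, a receptor for high-density lipoprotein found in caveolae, had levels of 9.04, 8.86 and 8.78 in controls and 8.17, 8.13 and 8.20 with fibrinogen. It fell by 0.73 on the log2 scale (SE 0.08; adjusted p = 0.00319, limma) and passed without each array in turn. Among the genes of this list not called, Smpd1 had the largest change, 0.26 ± 0.07 (SE; adjusted p = 0.0853, limma). The sphingomyelin synthase gene Sgms1 had a change of 0.24 ± 0.09 and the cholesterol exporter gene Abca1 one of -0.15 ± 0.10 (SE), neither past the test.

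**Figure D4:**
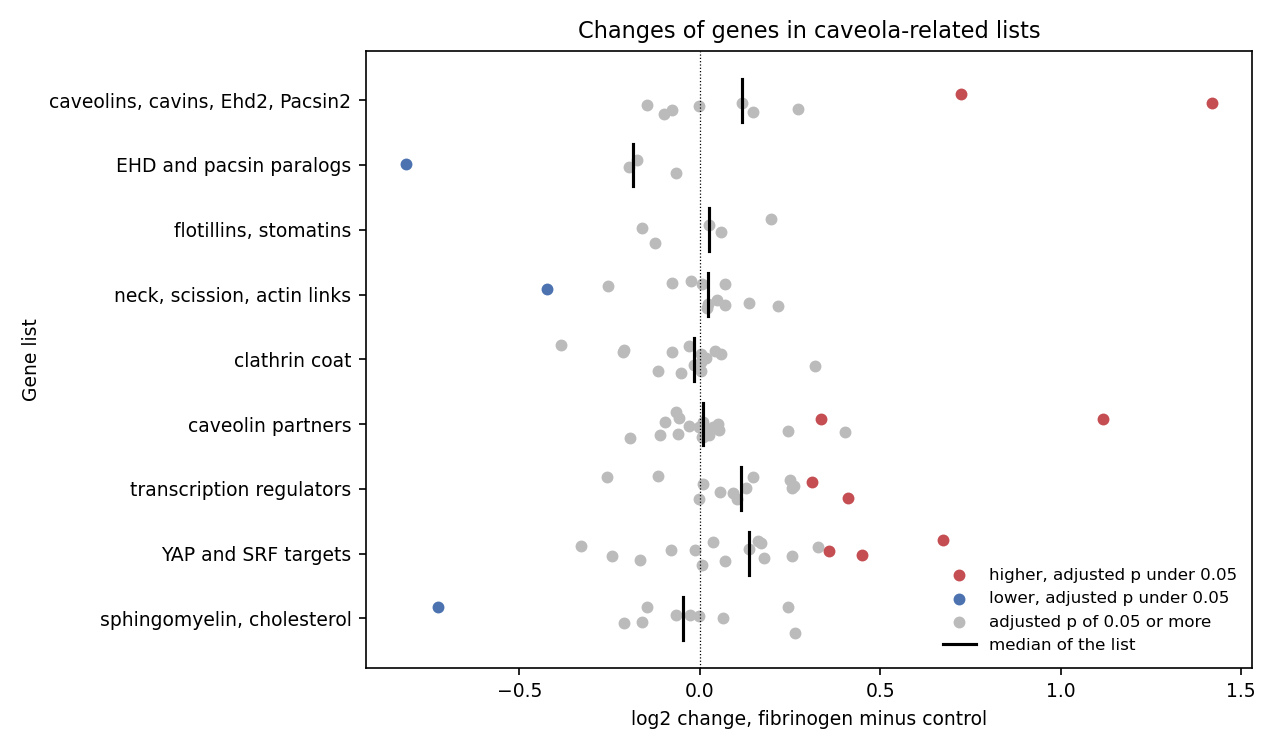
Log2 change, fibrinogen minus control (horizontal axis), of each measured gene in 9 lists (vertical axis), coloured by whether it passed the limma test higher or lower, with the median of each list as a black line. Cav1 (1.42) and Cav2 (0.72) stand apart in the top row, while all 15 clathrin coat genes lie between -0.38 and 0.32.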

How the data were processed

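RNA of 6 OPC samples (3 control, 3 fibrinogen) was amplified with NuGEN kits and hybridised to Affymetrix arrays, per the labels' protocols. The deposited log2 levels, with a value per probe set for each array, rounded to 2 decimals, were taken to be RMA values made by the authors, since the submitters' processing notes name RMA and limma without version or role; scale and centring were inferred from the values and stay unstated. RMA can compress differences of dim genes, and scanner files were not used here. Of 26312 probe sets, 1206 were blank on all arrays. The platform annotation paired 14700 of the rest with 1 symbol, which gave 13949 genes, each represented by its probe set with the highest mean.

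Groups came from the sample titles. limma 3.58.1 in R 4.3.3 (lmFit, eBayes, two-sided) was fitted to all genes as fibrinogen minus control, without covariates, with Benjamini-Hochberg adjustment over 13949 genes and a threshold of 0.05, and the fit was tested on simulated data. SEs are those of the fit, and the number of arrays limits the precision. The labels do not say that replicates were separate cultures, so the p-values reflect the spread among these samples alone and that spread may be technical. Arrays were checked for duplicates, and any pair shared at most 3.63% of its values.

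The members, the 8 context lists and the marker lists, drawn from general knowledge, were chosen with earlier results of these data known. Named genes were the 9 members, up to 3 called genes with the largest change per list, the 5 genes most like Cav1, the 3 measured neighbours on each side of Cav1 and Cav2 and, after their values were seen, a few genes of the lists and markers that were not called. Alternatives were median centring, 2 filters on dim genes, the mean of all probe sets, a replicate block, a trended robust variance, array weights and leaving out each array. Deviations of same-numbered arrays from their group means correlated by 0.0109 to 0.0278, under the 0.1 set for pairing, so the numbers were not treated as pairs.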

Additional observations from a re-analysis of the deposited data

How the results depend on the processing

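The rise of Cav1 passed under every alternative run, with log2 changes of 1.39 to 1.46. Leaving out 1 array in turn gave 151 to 436 changed genes, 1 to 2 of the 9 members called, and log2 changes of 0.61 to 0.87 for Cav2, -0.15 to -0.03 for Cav3, -0.07 to 0.05 for Cavin1, -0.10 to -0.05 for Cavin2, 0.12 to 0.18 for Cavin3, 0.20 to 0.34 for Cavin4, -0.25 to 0.012 for Ehd2 and 0.06 to 0.17 for Pacsin2. Array weights gave 659 changed genes and 1 member called, with Cav2 at 0.60 (adjusted p = 0.0543, limma). The sign turned, with no call either way, for Cavin1 with array weights (0.024) and without control 1 (0.0067), control 2 (0.0067), fibrinogen 1 (0.05) or fibrinogen 2 (0.01), for Ehd2 without fibrinogen 2 (0.012), for Capza2 with array weights (0.029), without control 2 (0.03) or fibrinogen 2 (0.08), and for ST7 without fibrinogen 2 (-0.0017). Over the fits without 1 array, Capza2 ran from -0.075 to 0.08 and ST7 from -0.0017 to 0.13. Fewer arrays in a fit leave fewer degrees of freedom, and the cause of the other shifts was not tested. With the replicate number as a block, 315 genes changed, Cav1 and Cav2 passed (adjusted p = 0.000927 and 0.0305, limma), and Actn1, Bmpr1a, Hif1a, Klf4 and Tpm2 did not (0.0723, 0.0824, 0.104, 0.0604 and 0.0655). Each of the 6 arrays correlated best with its own number in the other group, but only weakly (0.0109 to 0.0278), a hint from the data and not the design. Signals near the receptor percentile limit what can be said of Cav3, Cavin2 and Cavin4.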
